A study of Homo sapiens with 16 samples.

Results

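The genes described here are 50 genes of the cell cycle and of DNA replication, chosen by symbol from the 60448 genes counted in each library. All 50 matched a current gene symbol, and all 50 passed the filter on low counts that left 18285 genes for testing. They were described as 22 S-phase genes, which act at the start of DNA synthesis or in it, and 28 mitotic genes. The products of most mitotic genes act between the second gap phase and the end of cell division, and some, such as CCNA2 and MYBL2, also act earlier. Members were matched by name, from a list drawn up with earlier results of these data known.

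The series measured total RNA of HMLER cells, human mammary epithelial cells that were immortalised and transformed with introduced genes, among them TERT, the SV40 early region and oncogenic HRAS. There were 16 libraries, 2 in each of 8 groups. C1-sgEED-Mes and C1-sgEED-Epi were C1 cells of genotype EED-KO in a mesenchymal and an epithelial state, and C1-sgKMT2D-Mes and C1-sgKMT2D-Epi were C1 cells of genotype KMT2D-KO in the same pair of states. C2-Mes and C2-Epi were wild type C2 cells in the mesenchymal and epithelial states, and C1-sgControl was C1 of wild type genotype with a control guide. C1 was wild type, and the submitters call its epithelial state stable and the epithelial state of C2 and of the edited cells plastic. EED belongs to the core of PRC2, whose mark on histone H3 goes with silent genes. KMT2D is a methyltransferase of the COMPASS family, whose mark goes with active enhancers. All groups share the HMLER background and its introduced genes, so large T antigen of SV40, which binds the RB family and p53, belongs to the model in every group. Whether the 2 libraries of each group came from separate cultures is not stated, so every p-value rests on the spread among these libraries, which may be technical. RNA was taken from cultured or sorted cells, and the labels do not say which group was sorted or whether each group is 1 clone, and a difference of state and a difference between clones cannot be told apart.

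Cells copy their DNA in S phase and divide it in mitosis, and the genes of each step are switched on in turn. E2F factors, released from the RB family late in the first gap phase, drive genes for origin licensing, the replication fork and nucleotide synthesis. The mitotic genes follow later under the MuvB core with B-MYB (MYBL2) and then FOXM1. In resting cells the DREAM complex, which joins MuvB to an E2F and an RB relative, holds genes of both waves off, and p53 with its target CDKN1A favours that state. High RNA of these genes is widely read as a sign of dividing cells. In these bulk libraries fewer cells in the cycle and less RNA per cell cannot be told apart.

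The promoters of the 2 classes differ in their known short motifs, and 6 are shown, 3 for each class. The sequences are RefSeq promoter windows of GRCh38.p14, 300 bases from 250 before to 50 after the gene start, and windows were given for 40 of the 50 genes, 17 of S phase and 23 mitotic. Capitals mark words that were searched on both strands. The CHR, the site of the MuvB core, was searched as TTTGAA or TTCGAA, the CCAAT box as CCAAT, and the E2F site as TTTCCCGC, TTTCGCGC, TTTGCCGC or TTTGGCGC. In MKI67 a CHR word and a CCAAT word overlap. CDC20, PLK1 and MKI67 are mitotic, and their windows are chr1:43358731-43359030 (plus strand), chr16:23678639-23678938 (plus strand) and chr10:128126374-128126673 (minus strand). E2F1, CDC6 and PCNA are S-phase genes, with windows at chr20:33686336-33686635 (minus strand), chr17:40287629-40287928 (plus strand) and chr20:5126573-5126872 (minus strand).
CDC20: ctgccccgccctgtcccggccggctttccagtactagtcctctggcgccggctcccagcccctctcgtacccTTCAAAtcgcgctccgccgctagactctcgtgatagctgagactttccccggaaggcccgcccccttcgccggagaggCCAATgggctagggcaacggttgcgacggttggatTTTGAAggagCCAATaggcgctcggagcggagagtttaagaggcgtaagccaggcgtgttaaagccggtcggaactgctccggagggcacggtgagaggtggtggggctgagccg
PLK1: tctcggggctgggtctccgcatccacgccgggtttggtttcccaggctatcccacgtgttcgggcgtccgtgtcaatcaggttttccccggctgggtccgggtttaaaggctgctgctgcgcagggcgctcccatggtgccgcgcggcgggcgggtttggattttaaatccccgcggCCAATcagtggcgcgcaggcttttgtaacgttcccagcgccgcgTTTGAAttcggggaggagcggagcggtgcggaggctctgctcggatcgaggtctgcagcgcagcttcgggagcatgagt
MKI67: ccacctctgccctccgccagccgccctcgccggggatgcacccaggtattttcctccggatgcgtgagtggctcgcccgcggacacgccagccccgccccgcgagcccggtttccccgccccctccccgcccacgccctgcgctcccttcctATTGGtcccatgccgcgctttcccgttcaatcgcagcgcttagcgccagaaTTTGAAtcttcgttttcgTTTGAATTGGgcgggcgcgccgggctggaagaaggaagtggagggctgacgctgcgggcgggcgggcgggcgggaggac
E2F1: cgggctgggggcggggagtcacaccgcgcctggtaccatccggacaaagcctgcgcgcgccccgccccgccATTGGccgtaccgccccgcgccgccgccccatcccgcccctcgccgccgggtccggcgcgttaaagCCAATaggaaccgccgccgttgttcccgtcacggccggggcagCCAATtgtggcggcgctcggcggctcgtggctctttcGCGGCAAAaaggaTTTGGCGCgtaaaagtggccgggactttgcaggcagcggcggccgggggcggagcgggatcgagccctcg
CDC6: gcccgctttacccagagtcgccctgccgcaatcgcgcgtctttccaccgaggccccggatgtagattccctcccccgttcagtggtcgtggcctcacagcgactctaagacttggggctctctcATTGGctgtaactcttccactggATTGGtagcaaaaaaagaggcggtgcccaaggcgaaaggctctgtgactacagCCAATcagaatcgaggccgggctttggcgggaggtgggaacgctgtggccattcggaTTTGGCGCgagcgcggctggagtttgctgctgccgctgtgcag
PCNA: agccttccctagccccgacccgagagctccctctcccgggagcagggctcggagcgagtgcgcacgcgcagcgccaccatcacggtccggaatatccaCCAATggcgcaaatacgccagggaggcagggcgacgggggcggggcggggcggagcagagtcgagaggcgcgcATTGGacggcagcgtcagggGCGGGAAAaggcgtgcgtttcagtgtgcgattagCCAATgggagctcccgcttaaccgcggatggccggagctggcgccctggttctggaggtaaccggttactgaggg

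The CHR words were found in 16 of 23 mitotic windows (69.6%), in 2 of 17 S-phase windows (11.8%) and in 16.6% of all 27305 windows. The E2F words went the other way, with 3 of 23 mitotic windows (13%), 12 of 17 S-phase windows (70.6%) and 3.33% of all windows. CCAAT was common in both classes, with 78.3% of mitotic and 70.6% of S-phase windows against 35.7% of all windows. These counts describe letters and show no binding, and a window without a word says only that those letters are not in it. Whether the words go with the changes in RNA given below was not tested.

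Libraries held between 18872124 and 31950649 counts. Levels are CPM, counts scaled to a common library total (TMM), and changes are log2 differences of the group written first minus the group written second, with the standard error (SE) of edgeR's quasi-likelihood fit over all 16 libraries. A gene was called, and is said to have risen or fallen, at an adjusted p (Benjamini-Hochberg over the 18285 genes) under 0.05. The epithelial label CDH1 averaged 0.77, 0.298 and 1.15 CPM in C2-Mes, C1-sgEED-Mes and C1-sgKMT2D-Mes, against 216, 323 and 220 CPM in C2-Epi, C1-sgEED-Epi and C1-sgKMT2D-Epi. EED RNA stood at 5.22 and 5.50 CPM in C1-sgEED-Mes and at 26.7 and 29.5 CPM in C1-sgEED-Epi, against 26.6 and 21.6 CPM in C1-sgControl. KMT2D RNA was not lower in the libraries of its guide in the epithelial state, at 124.2 and 126.8 CPM in C1-sgKMT2D-Epi against 89.8 and 70.9 CPM in C1-sgControl. EED and KMT2D both fell in C1-sgEED-Mes and in C1-sgKMT2D-Mes, each against its epithelial group, so the fall of EED was not limited to its own guide. In wild type C2-Mes against C2-Epi both also had changes below 0, though 1 of them was not called. RNA of a gene cut by a guide need not fall, so neither level checks the edit itself. Leukocyte markers (8 genes) summed to between 0.115 and 0.711 CPM over all libraries, with 4 to 7 of the 8 genes at 0.

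The correlation of the 2 libraries of a group over all genes was 0.974 in C2-Mes and 0.992 to 0.998 in the other 7 groups. The mean of log2(CPM + 1) over the 22 S-phase genes was 4.25 in C2-Mes replicate 1 and 5.09 in replicate 2, while the mean over the 28 mitotic genes was 5.51 and 5.48. Mitochondrial transcripts took 12.48% of counts in C2-Mes replicate 1 and 8.146% in replicate 2, within a range of 7.009% to 12.48% over all libraries. C1-sgControl also stood apart and was the lowest of the 8 groups for 40 of the 50 genes, 16 of S phase and 24 mitotic. Transcripts of 86 ribosomal protein genes took 6.40% and 7.77% of counts in C1-sgControl, against 3.48% to 5.40% in the other 14 libraries. The part of these differences in the results was not tested.

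**Figure D1:**
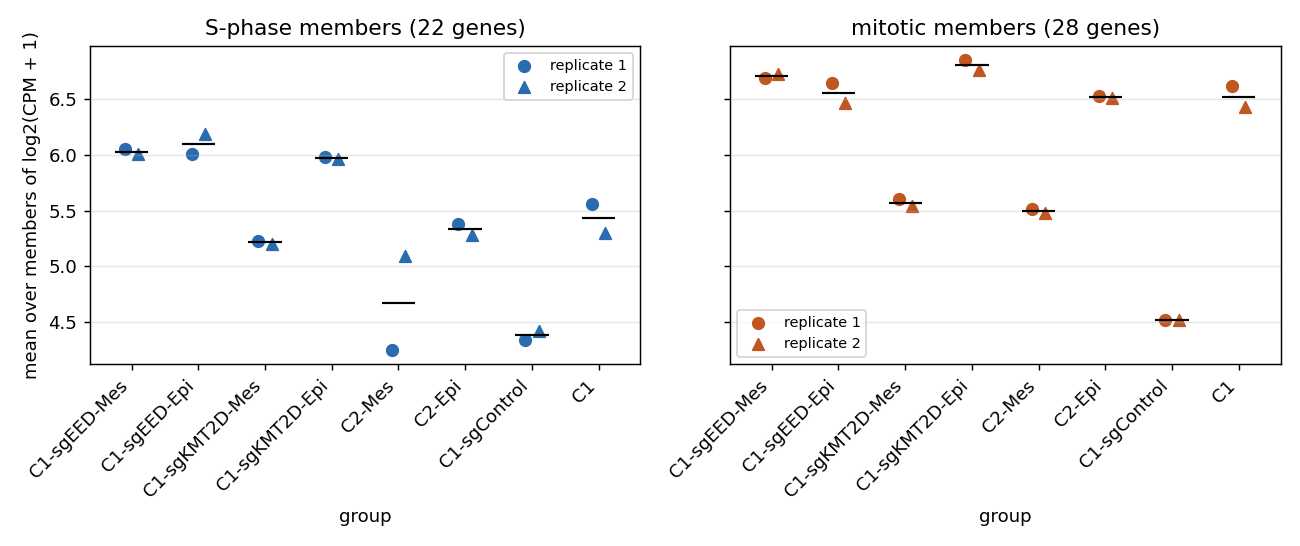
Mean of log2(CPM + 1) over the 22 S-phase genes (left) and the 28 mitotic genes (right) in each library; circles are replicate 1, triangles replicate 2, and black lines the mean of both. Mitotic genes stood between 5.48 and 5.60 in C1-sgKMT2D-Mes and C2-Mes and at 4.52 in both C1-sgControl libraries, against 6.43 to 6.85 in every other library.

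The genes ranged widely in level. Per kilobase of exon, PCNA, the sliding clamp of the replication fork, had the highest mean level over all libraries, 143.2 CPM per kilobase, followed by TPX2, a spindle assembly factor, at 73.6, and CCNB1, the mitotic cyclin B1, at 69.4. The lowest were the transcription factors E2F2 at 0.66 and E2F8 at 1.79 CPM per kilobase. Between the highest and lowest group mean the genes differed by 1.5-fold for TYMS, thymidylate synthase, up to 22.3-fold for CCNE2, cyclin E2. The highest group was C1-sgEED-Mes for 18 genes, C1-sgKMT2D-Epi for 15, C1-sgEED-Epi for 13, and C2-Epi or C1 for 2 each.

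The levels of some members by group, given here in every library, show how the classes lay. CCNB1 had 235.1 and 258.3 CPM in C1-sgEED-Mes and 209.2 and 248.9 CPM in C1-sgEED-Epi. It had 82.5 and 102.1 CPM in C2-Mes against 248.2 and 230.2 CPM in C2-Epi, and 67.8 and 82 CPM in C1-sgControl against 243 and 214.2 CPM in C1. C1-sgKMT2D-Mes, C2-Mes and C1-sgControl thus formed a low set, below all 10 other libraries.

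FOXM1, which drives late mitotic genes, had 124.7 and 134.8 CPM in C1-sgEED-Mes against 123.8 and 143.7 CPM in C1-sgEED-Epi. It had 69.4 and 66.4 CPM in C1-sgKMT2D-Mes against 152.2 and 151.6 CPM in C1-sgKMT2D-Epi, and 43 and 64.5 CPM in C2-Mes against 111.1 and 101.9 CPM in C2-Epi. In C1-sgControl it had 44.4 and 55 CPM against 124.1 and 94.9 CPM in C1, so the same 3 groups were low. PCNA kept to another order. It had 253.7 and 271 CPM in C1-sgEED-Mes against 268.2 and 315.2 CPM in C1-sgEED-Epi, and 130.5 and 125.6 CPM in C1-sgKMT2D-Mes against 338.4 and 334.6 CPM in C1-sgKMT2D-Epi. It had 95.7 and 95 CPM in C2-Mes against 166.8 and 166.6 CPM in C2-Epi, and 148.8 and 158.2 CPM in C1-sgControl against 270.4 and 231.5 CPM in C1. For PCNA the mesenchymal groups of C2 and KMT2D-KO were thus below C1-sgControl.

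MCM2 had 134.1 and 93 CPM in C1-sgEED-Mes against 124.4 and 152.3 CPM in C1-sgEED-Epi, and 95.2 and 87.6 CPM in C1-sgKMT2D-Mes against 99.2 and 110.6 CPM in C1-sgKMT2D-Epi. It had 43.6 and 85.6 CPM in C2-Mes against 83 and 75.4 CPM in C2-Epi, and 30.9 and 34.9 CPM in C1-sgControl against 102.5 and 83 CPM in C1. C1-sgControl alone stood below every other library for this licensing gene. TYMS varied least, with 95.3 and 99 CPM in C1-sgEED-Mes, its highest group, and 60.8 and 68.8 CPM in C1-sgControl, its lowest.

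The first question is whether the mesenchymal state of each lineage differed from its epithelial state in these genes. In C2-Mes against C2-Epi 34 of the 50 genes fell and 1 rose, where 18.6% of all genes tested fell and 21% rose. Of the mitotic genes 23 of 28 fell and none rose, with a median log2 change of -1.03, and of the S-phase genes 11 of 22 fell and 1 rose, with a median of -0.44. The median over all genes tested was 0.01. Both C2-Mes libraries lay below both C2-Epi libraries for 38 genes and above them for 1, where 31.1% of all genes tested lay below in this way and 31.4% above.

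Among the 50 genes the most negative change in C2-Mes was that of CDC20, the activator of the anaphase-promoting complex, which had 34.8 and 47.9 CPM in C2-Mes against 165.1 and 148.4 CPM in C2-Epi (log2 change -1.92, SE 0.18, adjusted p = 1.4e-06). BUB1, a kinase of the spindle checkpoint, had 42.4 and 37.4 CPM in C2-Mes against 111.8 and 111.8 CPM in C2-Epi (-1.49, SE 0.16, adjusted p = 3.7e-06). CCNA2, cyclin A2, had 31.5 and 30 CPM in C2-Mes against 83.5 and 84.3 CPM in C2-Epi (-1.45, SE 0.18, adjusted p = 2.1e-05). In all 3 the groups did not overlap, and the gap between them was wider than the distance between replicates. By role, all 7 cyclins, kinases and phosphatases of mitotic entry fell, as did all 4 genes of the spindle checkpoint and of the anaphase-promoting complex and both factors, MYBL2 and FOXM1. Among the 4 centromere and kinetochore genes only CENPA, the centromeric histone, fell (-1.08, SE 0.17, adjusted p = 0.00017). CENPE, CENPF and NDC80, which tie chromosomes to the spindle, had log2 changes of -0.39, -0.12 and -0.35.

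The S-phase genes of C2-Mes varied by role and by library. ORC1, the largest subunit of the origin recognition complex, had 5.26 and 9.55 CPM in C2-Mes against 27.1 and 25.6 CPM in C2-Epi (log2 change -1.81, SE 0.22, adjusted p = 1.6e-05). GINS2, of the helicase at the fork, had 3.09 and 13.4 CPM in C2-Mes against 30.7 and 24.6 CPM in C2-Epi (-1.70, SE 0.42, adjusted p = 0.0056). E2F8, an E2F that represses, had 1.58 and 2.33 CPM in C2-Mes against 5.85 and 6.07 CPM in C2-Epi (-1.57, SE 0.29, adjusted p = 0.00055). All 3 were lower in both C2-Mes libraries, and GINS2 was far lower in replicate 1 than in replicate 2. CCNE2 was the gene that rose, with 5.78 and 10.8 CPM in C2-Mes against 3.79 and 4.11 CPM in C2-Epi (1.09, SE 0.30, adjusted p = 0.011). That call was lost without C2-Epi replicate 1 and without C2-Mes replicate 2. MCM2, MCM3, MCM5 and MCM6, of the ring helicase that licenses origins, had changes of -0.29, -0.44, -0.24 and -0.19, none called, while MCM4 and MCM7 of the same ring fell by 0.87 and 0.81 on the log2 scale. E2F2, whose change lay nearest to the class median, had 0.117 and 1.76 CPM in C2-Mes, on both sides of 1.52 and 1.38 CPM in C2-Epi.

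In C2-Mes 20 S-phase genes were higher in replicate 2 than in replicate 1, with a median log2 difference of 0.88 over the 22, while 12 of 28 mitotic genes were, with a median of -0.07. MCM5 had 27.4 CPM in replicate 1 and 80.7 CPM in replicate 2, and E2F1, an E2F that activates, had 6.42 and 16.7 CPM. Several mitotic genes lay the other way, such as CENPE, with 89.2 CPM in replicate 1 and 42.7 CPM in replicate 2, and TOP2A, with 329.3 and 169.3 CPM. Without C2-Mes replicate 1 the S-phase genes had a median change of -0.18 with 10 falls and 2 rises, and without replicate 2 a median of -1.12 with 19 falls. The mitotic median was -1.15 without replicate 1 and -1.09 without replicate 2, with 23 and 22 falls. A fit of the 4 C2-Mes and C2-Epi libraries alone called 18 falls, 14 of them mitotic, and it called 18.1% of all genes tested, against 39.6% in the fit of all libraries.

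**Figure D2:**
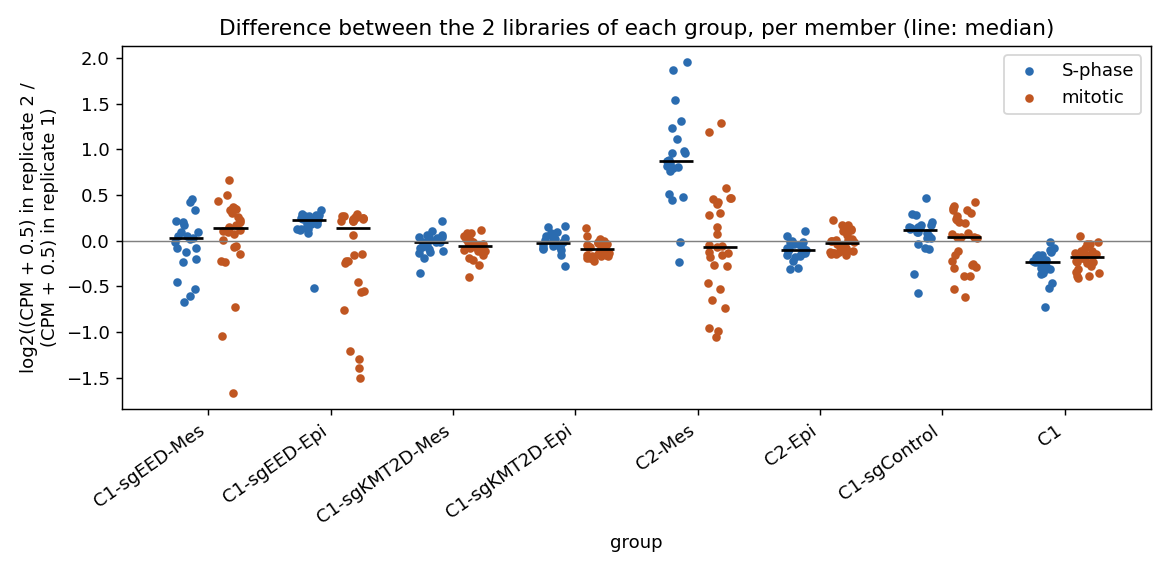
Log2 of CPM + 0.5 in replicate 2 over CPM + 0.5 in replicate 1 for each of the 50 genes, by group; blue points are S-phase genes, orange points mitotic genes, and black lines medians. In C2-Mes the S-phase genes had a median of 0.88 and the mitotic genes -0.07, while in the other groups both medians lay between -0.23 and 0.23.

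In C1-sgKMT2D-Mes against C1-sgKMT2D-Epi 38 of the 50 genes fell and none rose, where 24.0% of all genes tested fell and 26.8% rose. The mitotic genes fell in 26 of 28, with a median log2 change of -1.20, and the S-phase genes in 12 of 22, with a median of -0.79, where the median over all genes tested was 0.02. Both C1-sgKMT2D-Mes libraries lay below both C1-sgKMT2D-Epi libraries for 46 genes and above them for 1, where 40.1% of all genes tested lay below and 42.4% above. Leaving out 1 of the 4 libraries at a time gave 31 or 32 falls.

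MYBL2 had 39.8 and 37.6 CPM in C1-sgKMT2D-Mes against 195.1 and 191.8 CPM in C1-sgKMT2D-Epi (log2 change -2.32, SE 0.31, adjusted p = 3.5e-05). AURKA, a kinase of centrosome and spindle, had 39.2 and 37.2 CPM in C1-sgKMT2D-Mes against 161.3 and 157.0 CPM in C1-sgKMT2D-Epi (-2.06, SE 0.16, adjusted p = 1.5e-07). TTK, the checkpoint kinase MPS1, had 19.8 and 19.6 CPM in C1-sgKMT2D-Mes against 70.6 and 63.0 CPM in C1-sgKMT2D-Epi (-1.76, SE 0.19, adjusted p = 4.9e-06). These groups lay far apart and the libraries within each lay close together. CCNB1, nearest to the class median, had 92.2 and 95.7 CPM in C1-sgKMT2D-Mes against 211.4 and 218.4 CPM in C1-sgKMT2D-Epi (-1.19, SE 0.15, adjusted p = 1.9e-05). MKI67, which encodes the proliferation marker Ki-67, had 424.6 and 400.8 CPM in C1-sgKMT2D-Mes against 1075 and 980.9 CPM in C1-sgKMT2D-Epi (-1.32, SE 0.31, adjusted p = 0.0028). TOP2A, the topoisomerase that untangles chromosomes, had 258.8 and 250 CPM in C1-sgKMT2D-Mes against 459.6 and 427.4 CPM in C1-sgKMT2D-Epi and was not called (-0.80, SE 0.38, adjusted p = 0.095). CENPF was the other mitotic gene without a call (-1.12, SE 0.50, adjusted p = 0.075).

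Among the S-phase genes CDC25A, the phosphatase that activates CDK2, had 10.6 and 10.5 CPM in C1-sgKMT2D-Mes against 48.0 and 45.4 CPM in C1-sgKMT2D-Epi (log2 change -2.14, SE 0.22, adjusted p = 2.1e-06). ORC1 had 8.15 and 9.58 CPM in C1-sgKMT2D-Mes against 30.7 and 29.7 CPM in C1-sgKMT2D-Epi (-1.77, SE 0.22, adjusted p = 1.6e-05). CDC45, which joins the MCM ring to form the active helicase, had 12.9 and 11.9 CPM in C1-sgKMT2D-Mes against 36.2 and 35.1 CPM in C1-sgKMT2D-Epi (-1.52, SE 0.21, adjusted p = 4.4e-05). None of these groups overlapped. RRM2, the regulated subunit of ribonucleotide reductase, had 99.0 and 101.6 CPM in C1-sgKMT2D-Mes against 294.7 and 264.2 CPM in C1-sgKMT2D-Epi (-1.48, SE 0.21, adjusted p = 5.3e-05). Its partner RRM1 had a change of -0.20 and was not called, nor were MCM2, MCM3, MCM5 and MCM6, at -0.20, -0.17, 0.07 and 0.18. GINS2, nearest to the S-phase median, was not called either (-0.87, SE 0.41, adjusted p = 0.092).

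The falls of both lineages covered largely the same list. Of the genes that fell, 32 did so in both, which is 94.1% of the 34 of C2 and 84.2% of the 38 of KMT2D-KO cells. All 23 mitotic genes that fell in C2-Mes also fell in C1-sgKMT2D-Mes. With 38 of the 50 genes falling in C1-sgKMT2D-Mes, among them 26 of 28 mitotic genes, much of this overlap is set by those counts. Its share over all genes tested was not counted. The genes without a called fall in any of the 3 lineages were CCNE1, CDK2, CDT1, CENPF, E2F2, MCM2, MCM3, MCM5, MCM6 and TOP2A. A gene without a call may still have been lower. CENPF had 63.7 and 63.9 CPM in C1-sgKMT2D-Mes against 147.8 and 129.9 CPM in C1-sgKMT2D-Epi, and TOP2A did not overlap between those groups either.

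In C1-sgEED-Mes against C1-sgEED-Epi 5 of the 50 genes rose and 3 fell, where 19.2% of all genes tested rose and 17.3% fell. The median log2 change was -0.14 for S-phase and 0.10 for mitotic genes, beside 0.01 over all genes tested. Both C1-sgEED-Mes libraries lay above both C1-sgEED-Epi libraries for 14 genes and below them for 11, where 33.3% of all genes tested lay above and 30.5% below, so the members stood near those shares. CCNE2 had 29.9 and 27.5 CPM in C1-sgEED-Mes against 13.6 and 9.36 CPM in C1-sgEED-Epi (log2 change 1.32, SE 0.28, adjusted p = 0.0021). CDC25A had 19.2 and 19.0 CPM in C1-sgEED-Mes against 43.2 and 52.4 CPM in C1-sgEED-Epi (-1.32, SE 0.21, adjusted p = 0.00019). In both genes the groups did not overlap, and CDC25A fell in all 3 lineages.

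The other 4 genes that rose in C1-sgEED-Mes were mitotic. CDC25C, the phosphatase that activates CDK1, changed by 0.73 (SE 0.19, adjusted p = 0.0087), NDC80 by 0.67 (SE 0.14, adjusted p = 0.0017) and NUSAP1, a spindle protein, by 0.62 (SE 0.16, adjusted p = 0.008). KIF20A, a kinesin of cell division, had 159.0 and 206.2 CPM in C1-sgEED-Mes against 107.4 and 126.9 CPM in C1-sgEED-Epi (0.64, SE 0.17, adjusted p = 0.01). CDC20 fell (-0.50, SE 0.18, adjusted p = 0.04), and so did AURKB, the kinase of the chromosomal passenger complex (-0.50, SE 0.16, adjusted p = 0.023). Of these 8 calls only those of CCNE2, CDC25A and NDC80 held with each of the 4 libraries left out. Without C1-sgEED-Mes replicate 1 there were 8 rises, without its replicate 2 there were 2 rises and 1 fall, and without C1-sgEED-Epi replicate 2 there was 1 fall. MYBL2, which fell in both other lineages, had 151.6 and 162.4 CPM in C1-sgEED-Mes and 132.1 and 159.4 CPM in C1-sgEED-Epi, and those groups overlapped. Nearest to the class medians were PCNA (-0.15, SE 0.13, adjusted p = 0.38) and BUB1 (0.11, SE 0.15, adjusted p = 0.61), neither of them called.

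**Figure D3:**
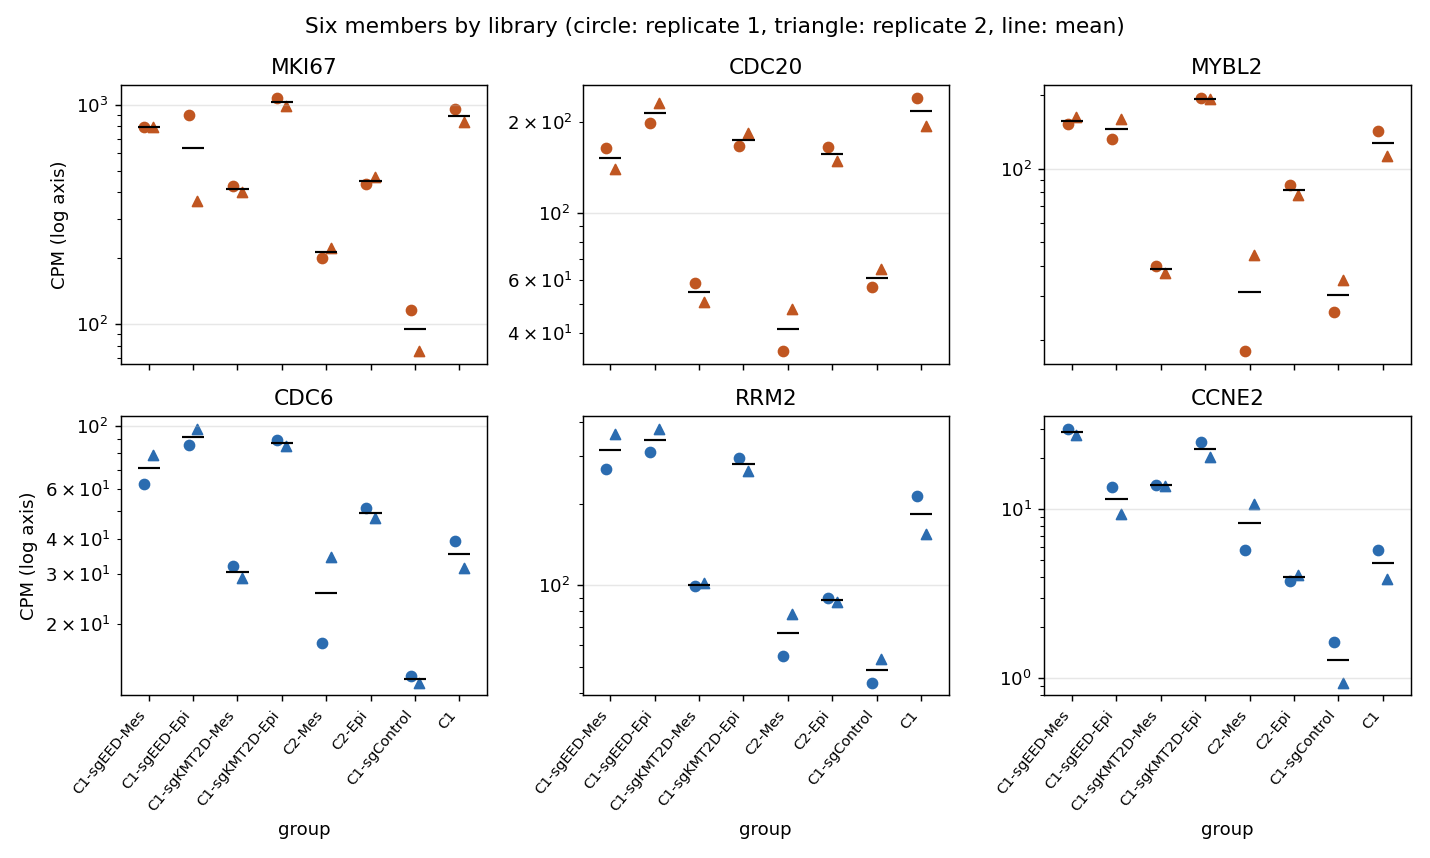
CPM on a log axis of MKI67, CDC20 and MYBL2 (mitotic, orange) and CDC6, RRM2 and CCNE2 (S phase, blue) in each library; circles are replicate 1, triangles replicate 2, and black lines group means. MYBL2 stood at 37.6 and 39.8 CPM in C1-sgKMT2D-Mes, against 191.8 and 195.1 CPM in C1-sgKMT2D-Epi, while its 2 sgEED groups overlapped.

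The mesenchymal minus epithelial change differed between lineages by a test of that difference itself. It was higher in the EED-KO lineage than in C2 for 28 of the 50 genes and lower for none, where 10.2% of all genes tested were higher and 10.9% lower. Mitotic genes were 22 of the 28, with a median difference of 1.13, and S-phase genes were 6, with a median of 0.46. That S-phase median was 0.06 without C2-Mes replicate 1 and 1.00 without C2-Mes replicate 2, while the mitotic median stayed between 1.12 and 1.28 with any 1 library left out. Against the KMT2D-KO lineage the change of EED-KO was higher for 31 genes and lower for none (9.24% and 10.9% of all genes tested), 22 of them mitotic. For MYBL2 the difference was 1.49 against C2 (SE 0.42, adjusted p = 0.022) and 2.43 against KMT2D-KO (SE 0.42, adjusted p = 0.0013), and the first of these calls was lost with a library left out, as were those of CDC45, FOXM1, MKI67, PCNA, RRM1, TPX2 and TYMS. For CCNB1 it was 1.48 (SE 0.21, adjusted p = 0.00018) and 1.30 (SE 0.21, adjusted p = 0.00071). The most positive differences against C2 were those of E2F8 (2.00, SE 0.38, adjusted p = 0.0017), KIF20A (1.88, SE 0.25, adjusted p = 8.4e-05) and CCNA2 (1.81, SE 0.25, adjusted p = 0.00015). Against KMT2D-KO they were those of MYBL2, AURKA (2.09, SE 0.22, adjusted p = 1.7e-05) and CCNE2 (2.04, SE 0.40, adjusted p = 0.0026). AURKA had 106.6 and 135.2 CPM in C1-sgEED-Mes and 108 and 128.6 CPM in C1-sgEED-Epi, groups that overlapped, while its KMT2D-KO groups lay far apart. The 2 differences share the EED-KO libraries. With only the 8 compared libraries in the fit, the first count was 14, and 11.6% of all genes tested were called in either direction, against 21.1% in the fit of all libraries.

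Between KMT2D-KO and C2 the change was lower in KMT2D-KO for 7 genes and higher for none, where 11.8% of all genes tested were lower and 12.3% higher. These were CCNE2 (difference -1.80, SE 0.41, adjusted p = 0.0057), E2F1 (-1.45, SE 0.46, adjusted p = 0.037), RRM2 (-1.07, SE 0.29, adjusted p = 0.016), TPX2 (-0.98), CDC25A (-0.97), AURKA (-0.94) and PCNA (-0.59). Leaving out C2-Mes replicate 2 gave 8 genes with a higher change in KMT2D-KO. Without any 1 library of C1-sgKMT2D-Mes, C1-sgKMT2D-Epi or C2-Epi the count of lower changes was 3 or 4.

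C1-sgEED-Mes stood above both other mesenchymal groups in most of the 50 genes. In C1-sgEED-Mes against C2-Mes 46 genes rose and none fell, where 21.7% of all genes tested rose and 20.2% fell, and in C1-sgEED-Mes against C1-sgKMT2D-Mes 38 rose and none fell, where 17.7% rose and 13.4% fell. Of the S-phase genes 14 rose against C1-sgKMT2D-Mes, and 6 to 9 with any 1 of those 4 libraries left out. MYBL2 had 151.6 and 162.4 CPM in C1-sgEED-Mes, against 39.8 and 37.6 CPM in C1-sgKMT2D-Mes and 17.9 and 44.4 CPM in C2-Mes. E2F8 had 14.5 and 20.1 CPM in C1-sgEED-Mes, against 4.56 and 4.24 CPM in C1-sgKMT2D-Mes and 1.58 and 2.33 CPM in C2-Mes. For both genes the C1-sgEED-Mes libraries lay above all others of a mesenchymal state. The log2 changes of MYBL2 were 2.02 against C1-sgKMT2D-Mes (SE 0.31, adjusted p = 0.00023) and 2.32 against C2-Mes (SE 0.31, adjusted p = 4.5e-05), and those of RRM2 were 1.65 (SE 0.21, adjusted p = 4.6e-05) and 2.24 (SE 0.22, adjusted p = 1.7e-06). CENPE, CENPF, TOP2A and CDT1 were not called against either group. Epithelial markers (8 genes) were also higher in sum in C1-sgEED-Mes, at 1532 and 1291 CPM, against 78.8 and 71.1 CPM in C1-sgKMT2D-Mes and 153.7 and 139.5 CPM in C2-Mes. Of the 8 markers 4 rose and 1 fell against C1-sgKMT2D-Mes and 3 rose and 1 fell against C2-Mes. Against C1-sgEED-Epi 7 of the 8 fell and 1 rose in C1-sgEED-Mes. The part of these markers in the differences between mesenchymal groups was not tested. In C1-sgKMT2D-Mes against C2-Mes 7 genes rose and 1 fell (16.2% and 17.2% of all genes tested), and the rises were 24 without C2-Mes replicate 2, 4 without its replicate 1, and 2 and 3 without C1-sgKMT2D-Mes replicate 1 and replicate 2. E2F2 (1.89, SE 0.50, adjusted p = 0.01), E2F8 (1.14, SE 0.29, adjusted p = 0.0082) and CCNE1 (1.04, SE 0.30, adjusted p = 0.014) rose, and the gene that fell was NDC80 (-0.53, SE 0.14, adjusted p = 0.01). Endothelial markers (6 genes) summed to 18.6 and 30.7 CPM in C2-Mes and to between 1.48 and 4.85 CPM in the other libraries. In C2-Mes most of that sum was PECAM1, with 16.6 and 25.5 CPM, while CDH5, a defining endothelial cadherin, was at 0 in both libraries.

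**Figure D4:**
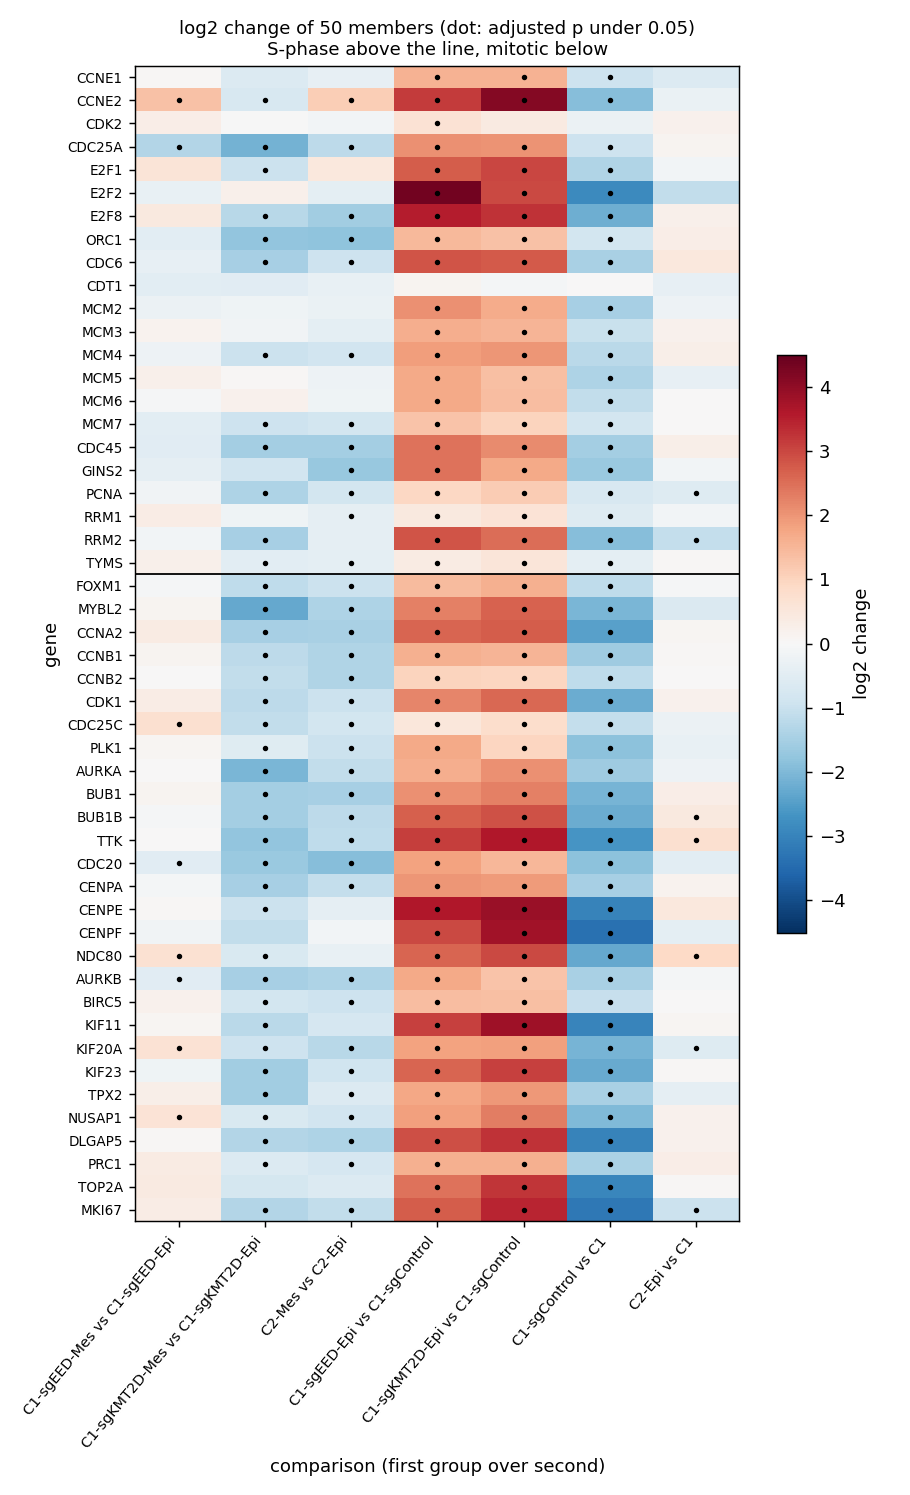
Log2 changes of the 50 genes (rows, S-phase genes above the line) in 7 comparisons (columns, first group over second); red is higher in the first group, blue lower, and a dot marks an adjusted p under 0.05. C1-sgKMT2D-Mes and C2-Mes had 38 and 34 falls, C1-sgEED-Mes had 5 rises and 3 falls, and the 2 comparisons of epithelial groups with C1-sgControl had 49 and 48 rises.

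The next question is how the epithelial cells with guides against EED or KMT2D differed from cells with a control guide. In C1-sgEED-Epi against C1-sgControl 49 of the 50 genes rose and none fell, where 24.3% of all genes tested rose and 24.6% fell. In C1-sgKMT2D-Epi against C1-sgControl 48 rose and none fell, where 25.3% rose and 30.7% fell. The genes without a call were CDT1, the licensing factor, in both comparisons and CDK2 in the second. Medians were 1.81 for S-phase and 2.04 for mitotic genes in C1-sgEED-Epi, and 1.61 and 2.29 in C1-sgKMT2D-Epi, beside -0.01 and -0.09 over all genes tested. Both comparisons share the 2 C1-sgControl libraries.

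E2F2 had 8.22 and 9.05 CPM in C1-sgEED-Epi and 3.44 and 3.30 CPM in C1-sgKMT2D-Epi, against 0.377 and 0.471 CPM in C1-sgControl (log2 changes 4.33, SE 0.56, adjusted p = 4.2e-05, and 2.98, SE 0.58, adjusted p = 0.00074). CCNE2 had 13.6 and 9.36 CPM in C1-sgEED-Epi and 24.9 and 20.5 CPM in C1-sgKMT2D-Epi, against 1.64 and 0.942 CPM in C1-sgControl (3.15, SE 0.34, adjusted p = 8.4e-06, and 4.13, SE 0.34, adjusted p = 6.3e-07). CDC6, which loads the MCM ring, had 85.6 and 97.6 CPM in C1-sgEED-Epi and 89.2 and 85.0 CPM in C1-sgKMT2D-Epi, against 13.1 and 12.4 CPM in C1-sgControl. The C1-sgControl libraries lay below all others for CCNE2 and CDC6, and for E2F2 below all but C2-Mes replicate 1, which had 0.117 CPM. MKI67 had 897.8 and 365.1 CPM in C1-sgEED-Epi and 1075 and 980.9 CPM in C1-sgKMT2D-Epi, against 116.0 and 75.3 CPM in C1-sgControl (2.72, SE 0.32, adjusted p = 1.9e-05, and 3.43, SE 0.33, adjusted p = 2.7e-06). KIF11, the motor that separates the spindle poles, had 112.1 and 48.3 CPM in C1-sgEED-Epi and 144.8 and 128.8 CPM in C1-sgKMT2D-Epi, against 11.4 and 7.75 CPM in C1-sgControl. For both genes the C1-sgEED-Epi libraries differed over 2-fold between themselves and still lay above C1-sgControl. CENPE also rose in both, by 3.59 in C1-sgEED-Epi (SE 0.39, adjusted p = 1e-05) and by 3.87 in C1-sgKMT2D-Epi (SE 0.40, adjusted p = 4.2e-06). Genes near the class medians were MCM4 (1.89) and BUB1 (2.07) in C1-sgEED-Epi and CCNE1 (1.55) and NUSAP1 (2.30) in C1-sgKMT2D-Epi, each called.

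Against C1, the wild type cells without a guide, these rises were fewer. In C1-sgEED-Epi against C1 12 of the 50 genes rose and 1 fell, where 12.5% of all genes tested rose and 12.6% fell, and 11 of the 12 were S-phase genes. The median log2 change was 0.64 for S-phase and 0.07 for mitotic genes. CDC6 had 85.6 and 97.6 CPM in C1-sgEED-Epi against 39.1 and 31.4 CPM in C1 (log2 change 1.38, SE 0.25, adjusted p = 0.0012). E2F1 had 22.7 and 24.7 CPM in C1-sgEED-Epi against 9.54 and 8.79 CPM in C1 (1.37, SE 0.33, adjusted p = 0.0086). RRM2 had 310.5 and 376.8 CPM in C1-sgEED-Epi against 212.7 and 154.4 CPM in C1 (0.90, SE 0.21, adjusted p = 0.0062). E2F2 had 8.22 and 9.05 CPM in C1-sgEED-Epi against 3.14 and 3.11 CPM in C1 (1.47, SE 0.44, adjusted p = 0.027). These groups did not overlap. CENPA was the mitotic gene that rose (0.50, SE 0.17, adjusted p = 0.041) and CDC25C the gene that fell (-0.57, SE 0.19, adjusted p = 0.044). Of the 49 genes that rose against C1-sgControl, 14 had changes below 0 against C1, 12 mitotic and 2 of S phase, of which CDC25C alone was called. They were CDC20 (-0.02), MKI67 (-0.50), PLK1 (-0.18), TOP2A (-0.51), TYMS (-0.07), BUB1, CCNB2, CDC25C, CDK1, CENPF, DLGAP5, KIF20A, NUSAP1 and RRM1.

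In C1-sgKMT2D-Epi against C1 16 genes rose and 1 fell, where 16.4% of all genes tested rose and 22.4% fell. Of these rises 9 were of S-phase genes and 7 of mitotic genes, with class medians of 0.46 and 0.31. CCNE2 had 24.9 and 20.5 CPM in C1-sgKMT2D-Epi against 5.77 and 3.88 CPM in C1 (log2 change 2.24, SE 0.30, adjusted p = 7.9e-05). TTK had 70.6 and 63.0 CPM in C1-sgKMT2D-Epi against 37.4 and 31.8 CPM in C1 (0.95, SE 0.19, adjusted p = 0.0015). PLK1, the polo kinase of mitotic entry, was the gene that fell, with 59.2 and 60.2 CPM in C1-sgKMT2D-Epi against 124.5 and 97.2 CPM in C1 (-0.89, SE 0.19, adjusted p = 0.0021). In these 3 genes the groups did not overlap. Of the 48 genes that rose against C1-sgControl, 8 had changes below 0 against C1, 7 of them mitotic, and PLK1 alone was called. The others were CDC20 (-0.32), CCNB1 (-0.09), MCM5 (-0.03), AURKB, CCNB2, CDC25C and KIF20A. RRM2, CDC25A, MCM4, CCNE2, E2F8, CDC6, E2F1 and CDC45 rose against C1 in both edited epithelial groups. Both comparisons share the 2 C1 libraries.

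**Figure D5:**
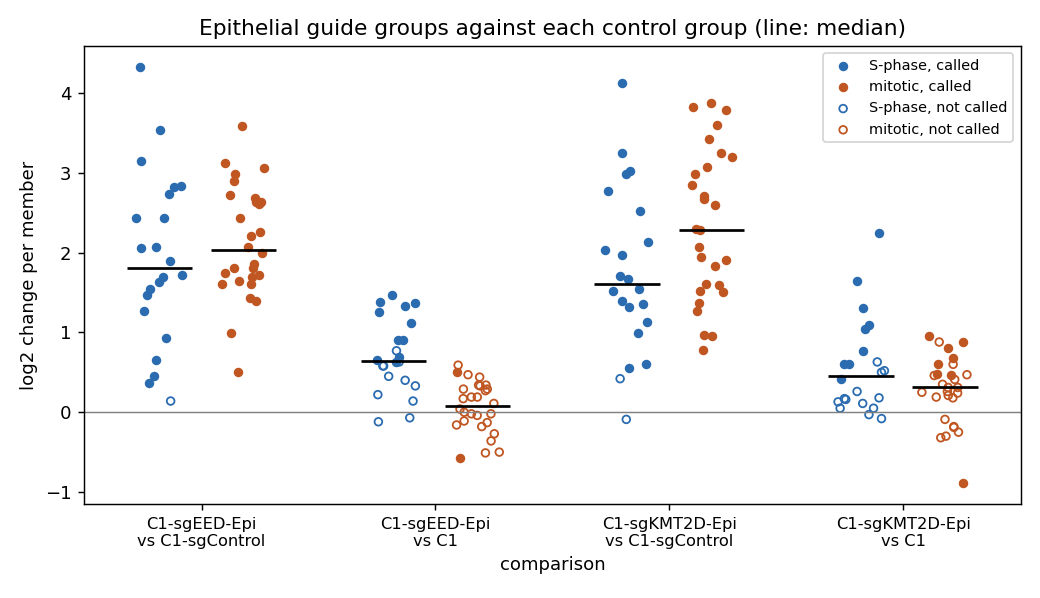
Log2 changes of the 50 genes in C1-sgEED-Epi and C1-sgKMT2D-Epi against C1-sgControl and against C1; blue points are S-phase genes, orange points mitotic genes, filled points had an adjusted p under 0.05, and black lines are medians. Mitotic medians were 2.04 and 2.29 against C1-sgControl, and 0.07 and 0.31 against C1.

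C1-sgControl itself stood far below C1. In C1-sgControl against C1 48 of the 50 genes fell and none rose, where 13.8% of all genes tested fell and 13.3% rose. All 28 mitotic genes fell, with a median log2 change of -2.08, and 20 of 22 S-phase genes fell, with a median of -1.16, beside 0.02 over all genes tested. CDK2 and CDT1 were the genes without a call (-0.26 and 0.00). Of the S-phase genes 13 fell without either C1-sgControl library and 10 without C1 replicate 1. MKI67 had 116.0 and 75.3 CPM in C1-sgControl against 951.1 and 828.8 CPM in C1 (-3.22, SE 0.33, adjusted p = 2.6e-05). DLGAP5, a protein of spindle microtubules, had 13.4 and 11.4 CPM in C1-sgControl against 107.6 and 91.0 CPM in C1 (-3.00, SE 0.19, adjusted p = 8.6e-07). E2F8 had 1.30 and 0.899 CPM in C1-sgControl against 6.49 and 3.72 CPM in C1 (-2.21, SE 0.31, adjusted p = 0.00026). CENPF (-3.34, SE 0.55, adjusted p = 0.00083) and E2F2 (-2.87, SE 0.59, adjusted p = 0.0034) fell furthest in their classes. The libraries of each group lay on their own side of the gap. CDKN1A, the p53 target that inhibits cyclin kinases, had 1202 and 1052 CPM in C1-sgControl against 625.5 and 632.5 CPM in C1 and was not called (0.84, adjusted p = 0.065). It is 1 of 8 inhibitors counted, and the others are not given for this comparison. Its part in these falls was not tested. Summed mesenchymal markers (8 genes) stood at 24305 and 22995 CPM in C1-sgControl, 14079 and 13889 CPM in C1, and 22927 and 22388 CPM in C1-sgKMT2D-Epi. Summed epithelial markers (8 genes) stood at 10089 and 11678 CPM in C1-sgControl against 12238 and 12270 CPM in C1. The mean of log2(CPM + 1) over mitotic genes was 4.52 in both C1-sgControl libraries and 6.85 and 6.76 in C1-sgKMT2D-Epi. The part of either marker list in these falls was not tested. The labels of C1-sgControl and C1 both name a wild type genotype and differ by the control guide alone. What else differed in culture or preparation is not given.

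In C2-Epi against C1, both wild type, 3 genes rose and 4 fell, where 12.4% of all genes tested rose and 18.3% fell. NDC80 had 26.5 and 26.5 CPM in C2-Epi against 15.1 and 13.7 CPM in C1 (log2 change 0.88, SE 0.14, adjusted p = 0.00045), and the checkpoint genes TTK (0.71, SE 0.19, adjusted p = 0.013) and BUB1B (0.45, SE 0.16, adjusted p = 0.045) also rose. RRM2 had 89.5 and 87.0 CPM in C2-Epi against 212.7 and 154.4 CPM in C1 (-1.06, SE 0.21, adjusted p = 0.0021). MKI67 had 433.3 and 467.2 CPM in C2-Epi against 951.1 and 828.8 CPM in C1 (-0.98, SE 0.30, adjusted p = 0.026). KIF20A and PCNA fell with them (both -0.59, adjusted p = 0.02 and 0.0034). The fit of these 4 libraries alone called 15 rises and 14 falls, but it also called 55.3% of all genes tested, against 30.7% in the fit of all libraries. Each fit with 1 library left out called 1 or 2 of each.

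Levels in the remaining groups, for genes given above in part, were as follows. PLK1 had 99 and 109.6 CPM in C1-sgEED-Mes against 90.4 and 105.9 CPM in C1-sgEED-Epi, and 43.1 and 37.7 CPM in C1-sgKMT2D-Mes. It had 37.7 and 52.4 CPM in C2-Mes against 92 and 82.9 CPM in C2-Epi, and 26.7 and 34.3 CPM in C1-sgControl. Its C1-sgKMT2D-Mes and C1-sgControl libraries thus lay below all epithelial libraries of the other groups. CDC20 had 163.9 and 139 CPM in C1-sgEED-Mes against 198.2 and 229.8 CPM in C1-sgEED-Epi, and 58.7 and 50.8 CPM in C1-sgKMT2D-Mes against 165.5 and 182.9 CPM in C1-sgKMT2D-Epi. It had 56.7 and 65.3 CPM in C1-sgControl against 239.9 and 193.8 CPM in C1, and C1-sgControl and C1-sgKMT2D-Mes lay at similar levels. AURKA had 47.5 and 43.5 CPM in C2-Mes against 102.7 and 94.3 CPM in C2-Epi, and 34.7 and 41 CPM in C1-sgControl against 121.5 and 108.5 CPM in C1, with no overlap in either pair. MYBL2 had 25.9 and 34.9 CPM in C1-sgControl against 143 and 112.3 CPM in C1, and 85.4 and 78 CPM in C2-Epi. TOP2A had 53.5 and 43.3 CPM in C1-sgControl against 381.4 and 359.8 CPM in C1, and 356.2 and 416.4 CPM in C2-Epi. C1-sgControl lay below C1 and C2-Epi in both genes. MKI67 had 791.4 and 793.2 CPM in C1-sgEED-Mes and 201.2 and 223.1 CPM in C2-Mes, and the C2-Mes libraries lay closer to those of C1-sgControl than to those of C1-sgEED-Mes.

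Among S-phase genes E2F1 had 44 and 27.4 CPM in C1-sgEED-Mes, 15.8 and 13.8 CPM in C1-sgKMT2D-Mes against 27.7 and 29.7 CPM in C1-sgKMT2D-Epi, and 9.02 and 7.68 CPM in C2-Epi. In C1-sgControl it had 3.14 and 3.94 CPM. C1-sgControl was the lowest group, and the C1-sgEED-Mes libraries differed between themselves more than those of C1-sgEED-Epi. CDC6 had 62.6 and 79.2 CPM in C1-sgEED-Mes, 31.9 and 29.1 CPM in C1-sgKMT2D-Mes, and 17.1 and 34.4 CPM in C2-Mes against 51.3 and 47.3 CPM in C2-Epi. RRM2 had 269 and 361.6 CPM in C1-sgEED-Mes, 54.7 and 78.4 CPM in C2-Mes and 43.7 and 53.6 CPM in C1-sgControl. In both genes the C1-sgEED-Mes libraries lay above those of the other mesenchymal groups. MCM5 had 142.4 and 104.2 CPM in C1-sgEED-Mes against 98.6 and 112 CPM in C1-sgEED-Epi, and 88 and 83.9 CPM in C1-sgKMT2D-Mes against 77.9 and 86.2 CPM in C1-sgKMT2D-Epi. It had 70.6 and 57.5 CPM in C2-Epi, and 30.3 and 33.7 CPM in C1-sgControl against 94.1 and 73.2 CPM in C1. C2-Mes replicate 1 and both C1-sgControl libraries were the low libraries. TYMS, the gene that varied least, had 75.9 and 90.1 CPM in C1-sgEED-Epi, and 69.3 and 69.8 CPM in C1-sgKMT2D-Mes against 95.2 and 95.8 CPM in C1-sgKMT2D-Epi. It had 72.3 and 61.4 CPM in C2-Mes against 90.7 and 89.5 CPM in C2-Epi, and 91 and 83.4 CPM in C1. Its levels were close in most libraries.

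The balance of the 2 classes differed between groups. The mean of log2(CPM + 1) over mitotic genes minus that over S-phase genes was 0.65 and 0.72 in C1-sgEED-Mes, 0.64 and 0.27 in C1-sgEED-Epi, 0.37 and 0.33 in C1-sgKMT2D-Mes, and 0.87 and 0.79 in C1-sgKMT2D-Epi. It was 1.25 and 0.39 in C2-Mes, 1.15 and 1.24 in C2-Epi, 0.18 and 0.11 in C1-sgControl, and 1.07 and 1.13 in C1. The edited groups of either state thus lay below both C1 and both C2-Epi libraries, with C1-sgControl lowest. These are descriptions of levels that are not per length, with no test.

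Some mitotic genes differed widely between the libraries of C1-sgEED-Mes or C1-sgEED-Epi, and they were picked out after their values were seen. CENPF, which helps form the kinetochore, had 107.2 and 33.5 CPM in C1-sgEED-Mes against 117.0 and 40.8 CPM in C1-sgEED-Epi, and TOP2A had 433.2 and 261.5 CPM in C1-sgEED-Mes against 378.3 and 143.6 CPM in C1-sgEED-Epi. Replicate 2 was lower in both groups, as it was for CENPE. MKI67 and KIF11 were also far lower in replicate 2 of C1-sgEED-Epi, but MKI67 stood at 791.4 and 793.2 CPM in C1-sgEED-Mes. The pattern was not limited to these groups. In C2-Mes CENPF had 92.3 and 46.4 CPM, CENPE 89.2 and 42.7 CPM, TOP2A 329.3 and 169.3 CPM, and KIF11 58.9 and 35.2 CPM. MKI67 had 201.2 and 223.1 CPM there. CENPF, CENPE and TOP2A have transcripts of 10307, 8612 and 5758 bases, against a median of 3204.5 over the 50 genes, and GC shares of 40.83%, 35.28% and 39.11%, against a median of 47.72%. KIF11 has a transcript of 4860 bases and a GC share of 38.33%. MKI67 has the longest transcript, 12678 bases, and a GC share of 48.27%, above the median. The part of length and GC share in these differences was not tested. With a correction for GC share and length C1-sgEED-Mes had 8 rises against C1-sgEED-Epi in place of 5, while the share of all genes called was 52.6% with it and 36.5% without it.

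Other genes of the same pathways were counted by role. The shares of all genes tested that rose and fell were 21% and 18.6% in C2-Mes, 26.8% and 24.0% in C1-sgKMT2D-Mes, and 19.2% and 17.3% in C1-sgEED-Mes, each against its epithelial group. Of 42 further mitotic genes, 35 fell in C2-Mes against C2-Epi, 40 in C1-sgKMT2D-Mes against C1-sgKMT2D-Epi and 2 in C1-sgEED-Mes against C1-sgEED-Epi, where 6 rose. Of 40 further S-phase genes, 20 fell in C2-Mes, 26 in C1-sgKMT2D-Mes and 8 in C1-sgEED-Mes, the last count near its share, and none rose. In C1-sgControl against C1, where 13.8% of all genes tested fell, 39 of the 42 and 25 of the 40 fell, among them KIF14, a mitotic kinesin, at 3.28 CPM in C1-sgControl against 48.4 CPM in C1 (log2 change -3.88, SE 0.68, adjusted p = 0.0013), and CLSPN, a mediator of the replication checkpoint, at 1.82 CPM in C1-sgControl against 20.6 CPM in C1 (-3.49, SE 0.28, adjusted p = 3.8e-06). MCM10, which helps to start the fork, averaged 9.33 CPM in C2-Mes against 29.7 CPM in C2-Epi (-1.66, SE 0.20, adjusted p = 1.2e-05), and 14.6 CPM in C1-sgKMT2D-Mes against 58.5 CPM in C1-sgKMT2D-Epi (-2.01, SE 0.20, adjusted p = 1.5e-06).

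Of 20 genes of the first gap phase and the RB family, 4 rose and 1 fell in C2-Mes, 3 rose and 9 fell in C1-sgKMT2D-Mes, and 3 rose and 5 fell in C1-sgEED-Mes, each against its epithelial group, and several of these counts are at or below the shares over all genes. CDK6, a kinase that phosphorylates RB, had 36.1 and 40.6 CPM in C1-sgKMT2D-Mes against 342.9 and 271.8 CPM in C1-sgKMT2D-Epi (log2 change -3.00, SE 0.49, adjusted p = 0.00021). RB1 averaged 106.1 CPM in C1-sgEED-Mes against 48.0 CPM in C1-sgEED-Epi (1.15, SE 0.27, adjusted p = 0.0048). Of 8 inhibitors of cyclin-dependent kinases, 3 rose and 1 fell in C2-Mes, 3 rose and 2 fell in C1-sgKMT2D-Mes, and 4 rose and none fell in C1-sgEED-Mes, in a list too short to set against those shares. CDKN2C, an inhibitor of CDK4 and CDK6, had 46.7 and 48.1 CPM in C1-sgKMT2D-Mes against 13.2 and 11.9 CPM in C1-sgKMT2D-Epi (1.92, SE 0.34, adjusted p = 0.00036), and 45.8 and 43.7 CPM in C1-sgEED-Mes against 6.93 and 9.05 CPM in C1-sgEED-Epi (2.48, SE 0.35, adjusted p = 8e-05). The groups did not overlap in either lineage, while in C2-Mes it had 6.54 and 19.6 CPM, on both sides of the 17.9 and 16.6 CPM in C2-Epi. CDKN2B, an inhibitor of the same kinases, averaged 45.6 CPM in C1-sgKMT2D-Mes against 110.4 CPM in C1-sgKMT2D-Epi and fell (-1.27, SE 0.20, adjusted p = 0.00011). It rose in C1-sgEED-Mes (1.25, SE 0.20, adjusted p = 0.00019) and in C2-Mes (1.22, SE 0.20, adjusted p = 0.00018).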

How the data were processed

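Gene counts of total RNA from 16 HMLER libraries were used. Raw read counts per gene, one file a library, were deposited by the authors. Per the submitters' processing notes, reads were mapped to GRCh38 with STAR 2.7.1a and counted with featureCounts. The strand setting and annotation release are not given in the sources used here, so reads of antisense partners may not be told apart. Gene names and positions came from GENCODE 29, which held 56868 (94.1%) of the gene IDs.

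Groups followed the sample titles. The 50 genes and all gene lists were chosen with earlier results of these data known. In each comparison the text names the called genes with the most extreme changes in each class and those nearest the class median, and 16 genes are given in every library. Genes were filtered with filterByExpr, scaled by TMM and fitted in edgeR 4.0.16 (R 4.3.3) with a quasi-likelihood model of 8 groups and 8 residual degrees of freedom. For each gene this fit assumes the same spread in all groups. Standard errors and adjusted p may thus be too small for C2-Mes, whose libraries differed most, and too large for groups with close libraries. With only the compared libraries, C2-Mes against C2-Epi called 18.1% of genes in place of 39.6%, and C1-sgKMT2D-Mes against C1-sgKMT2D-Epi 67.9% in place of 50.8%. Standard errors are the log2 change over the square root of F. Adjusted p-values are Benjamini-Hochberg within each comparison, over 18285 genes. Differences between lineages were tested as interaction contrasts. Replicates of a group differed by more than counting noise, so none was counted as a duplicate. On simulated counts for C2-Mes against C2-Epi, 18285 genes, the fit recovered 45% of 2-fold and 79% of 4-fold changes with 11 false calls, and made 0 calls when nothing was changed. The simulation gave every group the same spread per gene and changed 100 genes at each fold. In the data the C2-Mes libraries agreed least (r 0.974) and many more genes were called. The simulation therefore cannot give the rate of false calls in that comparison. Alternatives were RLE scaling, no filter, DESeq2 1.42.0, only the compared libraries, a replicate block, a correction for GC share and length, C1 as control, and each library left out.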

Additional observations from a re-analysis of the deposited data

Results flagged for a closer look

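The mesenchymal minus epithelial change of some genes differed between lineages by edgeR's interaction test. Each value is a difference of 2 log2 changes, with an adjusted p under 0.05. Taking the change of EED-KO cells minus that of C2 cells, the differences were 1.42 for CDC20, 1.48 for CCNB1, 1.41 for MKI67, 0.94 for FOXM1, 1.04 for PLK1, 1.49 for MYBL2 and 1.15 for AURKA among mitotic genes. Among S-phase genes they were 0.66 for TYMS and 0.65 for PCNA. Taking EED-KO minus KMT2D-KO, the mitotic differences were 1.17 for CDC20, 1.30 for CCNB1, 1.64 for MKI67, 1.12 for FOXM1, 2.43 for MYBL2 and 2.09 for AURKA. The S-phase differences were 1.35 for RRM2, 2.04 for CCNE2, 1.14 for CDC6, 0.68 for TYMS, 1.24 for PCNA and 1.54 for E2F1. Taking KMT2D-KO minus C2, the called genes named here were all below 0. They were -1.07 for RRM2, -1.80 for CCNE2, -0.59 for PCNA, -1.45 for E2F1 and -0.94 for AURKA. Of all genes described, 7 were lower in this set and none higher, where 11.8% of all genes tested were lower and 12.3% higher. With 1 library left out, the median of this difference ranged from -0.32 to 0.44 for S-phase genes. For mitotic genes it ranged from -0.26 to -0.08. The first 2 sets share the EED-KO libraries, and the 2 sets with C2 share the C2-Mes libraries, which differ between themselves in S-phase genes. With 1 library left out at a time, a call was lost in at least 1 fit for FOXM1, MKI67, MYBL2, PCNA and TYMS in EED-KO minus C2, for CDC6, E2F1, MKI67 and TYMS in EED-KO minus KMT2D-KO, and for E2F1, PCNA and RRM2 in KMT2D-KO minus C2.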

How the results depend on the processing

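Counts of the 50 genes are given as rises and falls. With no filter on low counts, C1-sgEED-Mes against C1-sgEED-Epi had 5 falls in place of 3, C2-Epi against C1 had 5 rises in place of 3, C1-sgKMT2D-Mes against C2-Mes had 12 rises and 0 falls in place of 7 and 1, and the change of KMT2D-KO minus C2 was higher for 1 gene in place of 0. With only the compared libraries, C2-Mes against C2-Epi had 0 rises and 18 falls in place of 1 and 34, C1-sgEED-Mes against C1-sgEED-Epi had 1 fall, C2-Epi against C1 had 15 and 14 in place of 3 and 4, C1-sgKMT2D-Mes against C2-Mes had 1 and 0, and EED-KO minus C2 was higher for 14 in place of 28. With the GC and length correction, which tested 12660 genes, C1-sgEED-Mes against C1-sgEED-Epi had 8 rises in place of 5, C2-Epi against C1 had 9 rises, and C1-sgKMT2D-Mes against C2-Mes had 4 falls. With C1 as control, C1-sgEED-Epi had 12 rises and 1 fall and C1-sgKMT2D-Epi 16 and 1, 14 and 8 of the genes that rose against C1-sgControl had changes below 0, and among the genes given in every library these were CDC20 (-0.02), MKI67 (-0.50), PLK1 (-0.18), TOP2A (-0.51) and TYMS (-0.07) in C1-sgEED-Epi and CDC20 (-0.32), CCNB1 (-0.09), PLK1 (-0.89) and MCM5 (-0.03) in C1-sgKMT2D-Epi. With 1 library left out, rises and falls ranged over 0 to 2 and 29 to 41 in C2-Mes, 2 to 8 and 1 to 3 in C1-sgEED-Mes, and 0 and 31 to 32 in C1-sgKMT2D-Mes, each against its epithelial group. They ranged over 45 to 49 and 0 in C1-sgEED-Epi and 47 to 48 and 0 in C1-sgKMT2D-Epi against C1-sgControl, 0 and 37 to 45 in C1-sgControl against C1, and 1 to 2 and 1 to 2 in C2-Epi against C1. Against C2-Mes they ranged over 40 to 45 and 0 in C1-sgEED-Mes and 2 to 24 and 0 to 3 in C1-sgKMT2D-Mes, and C1-sgEED-Mes against C1-sgKMT2D-Mes had 27 to 32 and 0. Differences of change were higher and lower for 20 to 39 and 0 genes (EED-KO minus C2), 0 to 8 and 3 to 10 (KMT2D-KO minus C2) and 26 to 30 and 0 (EED-KO minus KMT2D-KO). In these fits a group with 1 library left is assumed to vary like the others. Shared replicate numbers did not pair the libraries in all groups (r of replicate differences across genes -0.459 to 0.481). This r was positive for C1-sgEED-Epi with C1-sgControl (0.481) and for C1-sgKMT2D-Epi with C1-sgControl (0.289). Whether those groups shared a batch by replicate was not tested. With replicate number as a block, 47 genes rose in C1-sgEED-Epi against C1-sgControl in place of 49, and C2-Mes had 35 falls in place of 34. The causes were not tested. RLE scaling, DESeq2 and the block moved no count by over 1.5 times.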
